A study of Rattus norvegicus with 18 samples.

Results

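The genes described here are those that copy DNA in S phase and supply its nucleotides: origin licensing and helicase factors, DNA polymerases, the sliding clamp and its loader, ribonucleotide reductase and other nucleotide enzymes, and the E2F1 and cyclin E regulators of S phase entry. Of 38 listed genes, 35 were matched by symbol on the array, out of 14499 distinct genes with a single symbol, and each was read from its brightest feature. Mcm3, Mcm4 and Chaf1a were not analysed here. The cells were primary cultures from the rat renal inner medulla, labelled as inner medullary collecting duct (IMCD) cells, which line the last stretch of the kidney tubule and meet a high and changing osmolality. There were 6 groups of 3 arrays. Cells were cultured at 300 mosmol/kg (the 300 culture) or at 600 mosmol/kg (the 600 culture). From the 300 culture, cells went to 600 mosmol/kg and stayed there for 24 h without (the 600 challenge) or with 5 µM cyclosporin A, which blocks the phosphatase calcineurin. From the 600 culture, cells went to 900 mosmol/kg for 24 h, again without (the 900 challenge) or with 5 µM cyclosporin A. Nothing in the labels ties the 3 arrays of a group to different animals or dishes, and every p-value therefore reflects array-to-array spread that could be technical.

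Values are deposited log-scale levels. No source used here names the base of the logarithm. Differences are therefore in log units: 1 unit means 2-fold for base 2, or 2.72-fold for the natural logarithm. Array medians ran from 3.56 to 3.65 and lower quartiles from 2.48 to 2.70. A level near or under the lower quartile is dim: Orc1 lay under it on 16 of 18 arrays, Cdt1 on 11, E2f1 on 9, Gins1 on 8, Pold1 on 7, and Gins4 and Pole on 1 each. The epithelial markers Epcam and Cdh1 were bright in every group (lowest group mean 6.80, Cdh1). The principal cell water channel Aqp2 read 1.62, 1.72 and 1.49 in the 300 culture and 6.84, 6.32 and 6.33 in the 600 culture. Of 10 principal cell markers, 6 lay under the lower quartile in the 300 culture and 2 in the 600 culture, so at 300 mosmol/kg the cells were bright for epithelial markers and dim for most principal cell markers. RNA came from whole cultures, where fewer cells of a type and less RNA per cell cannot be told apart.

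Before S phase the origin recognition complex, with Cdc6 and Cdt1, loads the MCM ring onto DNA. At S phase entry Cdc45 and the GINS complex turn that ring into the moving helicase. Polymerase alpha with primase starts each strand, and polymerases epsilon and delta extend it with the clamp PCNA. Ribonucleotide reductase and thymidylate synthase make deoxynucleotides, and transcription factors of the E2F family, released from the retinoblastoma protein when cyclin-dependent kinases become active, drive many of these genes. In the inner medulla, raised osmolality is known to slow cell cycle progression.

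Promoters were compared because E2F is the textbook regulator of this set. The RefSeq promoter table (GRCr8) held 29 of the 35 genes, without Orc1, Cdc6, Gins4, Rrm2, E2f1 and Ccne2. The 4 spellings TTTCCCGC, TTTCGCGC, TTTGCCGC and TTTGGCGC were searched on both strands, from 250 bases before to 50 after each start. At least 1 of them was found for 13 of the 29 genes (44.8%), against 716 of 33469 promoters in the table (2.14%); genes with several starts had more than 1 window. A match is a run of letters, not a shown binding site. Printed below are the 250 bases before the start for 5 genes that fell in at least 1 osmotic challenge and have a match. Pola2, the 1 gene that rose in both, is printed as well. The 5 were picked by their fall and their match, so their contrast with Pola2 was set by the choice. Letters read 5′ to 3′ along the gene, and capitals mark the E2F letters on either strand, where matches on opposite strands can overlap. Mcm2 lies at chr4:122918095-122918344 on the minus strand, Mcm5 at chr19:13488563-13488812 on the plus strand and Mcm6 at chr13:42404353-42404602 on the minus strand. Tyms lies at chr9:120776084-120776333 on the minus strand, Uhrf1 at chr9:1222936-1223185 on the plus strand (the 1 of its 3 starts in the table that has matches) and Pola2 at chr1:212680543-212680792 on the minus strand.
Mcm2: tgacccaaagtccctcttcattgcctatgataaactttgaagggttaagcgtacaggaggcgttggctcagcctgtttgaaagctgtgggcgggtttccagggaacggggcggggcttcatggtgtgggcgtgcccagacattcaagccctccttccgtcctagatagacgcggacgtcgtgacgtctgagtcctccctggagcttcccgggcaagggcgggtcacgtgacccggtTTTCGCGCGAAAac
Mcm5: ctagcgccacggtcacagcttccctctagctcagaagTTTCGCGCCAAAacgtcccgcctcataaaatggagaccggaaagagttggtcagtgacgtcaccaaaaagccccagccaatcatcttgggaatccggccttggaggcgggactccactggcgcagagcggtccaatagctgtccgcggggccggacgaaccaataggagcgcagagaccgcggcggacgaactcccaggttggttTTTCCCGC
Mcm6: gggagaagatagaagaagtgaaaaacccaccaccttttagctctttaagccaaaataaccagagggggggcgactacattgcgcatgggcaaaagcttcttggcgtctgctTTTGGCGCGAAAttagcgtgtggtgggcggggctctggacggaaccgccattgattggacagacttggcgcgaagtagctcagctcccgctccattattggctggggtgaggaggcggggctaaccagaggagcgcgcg
Tyms: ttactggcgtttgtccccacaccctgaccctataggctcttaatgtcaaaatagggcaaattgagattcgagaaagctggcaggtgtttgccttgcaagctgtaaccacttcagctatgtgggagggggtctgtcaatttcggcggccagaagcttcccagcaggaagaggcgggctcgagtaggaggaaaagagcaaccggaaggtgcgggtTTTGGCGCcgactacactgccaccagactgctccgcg
Uhrf1: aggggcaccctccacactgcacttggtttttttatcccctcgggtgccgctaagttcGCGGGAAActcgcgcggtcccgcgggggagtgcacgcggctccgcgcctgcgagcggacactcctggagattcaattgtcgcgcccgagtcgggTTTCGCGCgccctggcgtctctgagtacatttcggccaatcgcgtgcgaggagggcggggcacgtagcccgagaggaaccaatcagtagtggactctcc
Pola2: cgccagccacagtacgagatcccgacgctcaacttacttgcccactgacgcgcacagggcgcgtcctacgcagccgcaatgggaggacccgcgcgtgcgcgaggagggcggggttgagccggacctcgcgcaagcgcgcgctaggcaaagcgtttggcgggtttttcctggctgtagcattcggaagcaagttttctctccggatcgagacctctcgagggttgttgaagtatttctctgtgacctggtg
Mcm2 and Mcm6 each hold an overlapping pair of matches, Mcm5 holds such a pair and a further match next to its start, Tyms holds 1, Uhrf1 holds 2 apart from each other, and Pola2 holds none in these letters. The other genes with a match were Cdt1, Mcm7, Gins1, Gins3, Pola1, Pole, Rfc3 and Lig1, of which Gins1, Gins3, Rfc3 and Lig1 fell in neither challenge. The CCAAT box (CCAAT) was found for 17 of 29 genes and in 37.5% of all promoters, the Sp1 box (GGGCGG) for 20 and in 33.1%, and the CHR element (TTTGAA) for 2 and in 18.3%.

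The first comparison asked what 24 h at 600 mosmol/kg did to cells from the 300 culture. Of the 35 replication genes 15 fell (42.9%) and 1 rose (limma with Benjamini-Hochberg adjustment over all 28328 features, threshold 0.05). Over all features 8.07% were lower and 6.36% higher. The genes' median difference was -0.25 log units, against 0.02 over all features. In 19 of the 35 all 3 challenged arrays lay below all 3 culture arrays, which held for 15.6% of all features. By role, 7 of 8 measured licensing genes, 3 of 4 nucleotide genes, 1 of 2 chromatin genes, 2 of 3 G1/S genes and 2 of 6 helicase activation genes fell. None of the 12 genes for polymerases, clamp, loader and Okazaki fragments fell, and besides Pola2, which rose, 1 of the 12 (Rfc4, -0.14, adjusted p = 0.129) had an unadjusted p under 0.05.

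**Figure D1:**
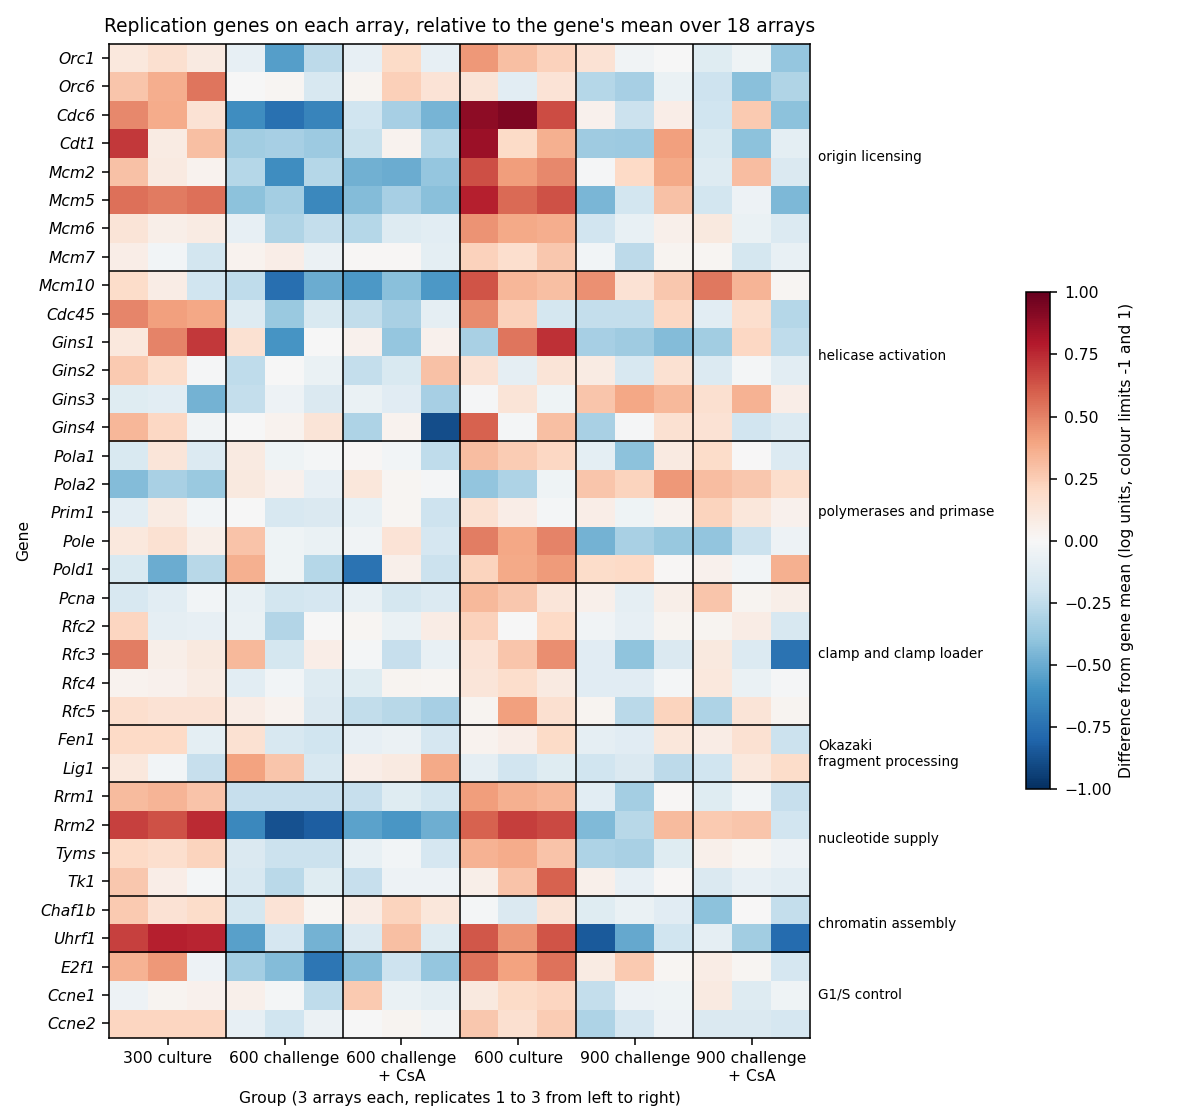
Level of each of the 35 genes (rows, ordered by role) on each of the 18 arrays (columns, 6 groups of 3), as the difference in log units from that gene's mean over all arrays; CsA is cyclosporin A and colours stop at -1 and 1. Cdc6, Mcm5, Rrm2 and Uhrf1 are red in both cultures and mostly blue in the challenges, while Pola2 runs the other way.

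Rrm2, the regulated small subunit of ribonucleotide reductase, showed the largest difference. It read 5.92, 5.88 and 5.99 in the 300 culture and 4.60, 4.37 and 4.41 in the 600 challenge. All challenged arrays lay more than 1 unit below all culture arrays. Rrm2 fell by 1.47 log units (SE 0.16, adjusted p = 1.5e-05), which is 2.77-fold on a base 2 scale and 4.34-fold on a natural one. A dimmer second feature of Rrm2 fell by 1.32 log units. Its partner Rrm1, the large catalytic subunit, read 6.13, 6.15 and 6.10 and then 5.58, 5.58 and 5.59. The Rrm1 groups were far apart for their narrow spread, and the gene fell by 0.54 log units (SE 0.08, adjusted p = 0.000167). A dimmer second feature of Rrm1 did not pass, at -0.27 log units (limma, adjusted p = 0.467). Tyms, which makes thymidylate, went from 5.47, 5.44 and 5.49 to 5.13, 5.06 and 5.06 without overlap. Tyms fell by 0.39 log units (SE 0.06, adjusted p = 0.00039). Tk1, the thymidine salvage kinase, was lower on every challenged array but did not pass the test, at -0.29 log units (SE 0.11, adjusted p = 0.103).

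Among licensing genes, Cdc6, which loads the MCM ring, read 4.17, 4.07 and 3.83 in the 300 culture and 3.07, 2.94 and 3.03 in the 600 challenge. Mcm5, a ring subunit, read 4.77, 4.74 and 4.77 and then 3.81, 3.88 and 3.58. For both genes the groups were separate by a wide gap. Cdc6 fell by 1.01 log units (SE 0.15, adjusted p = 0.00024) and Mcm5 by 1.01 log units (SE 0.15, adjusted p = 0.000287). Cdt1, the other loading factor, is dim: it read 3.26, 2.64 and 2.85 in the culture and 2.20, 2.22 and 2.19 in the challenge, where all 3 arrays lay close together and below the culture. Cdt1 fell by 0.71 log units (SE 0.21, adjusted p = 0.0382), against a culture SD of 0.31. The origin recognition subunits Orc1 and Orc6 fell by 0.42 and 0.44 (adjusted p = 0.028 and 0.0061). Among other ring subunits, Mcm2 fell by 0.54 log units (SE 0.13, adjusted p = 0.0136) and Mcm6 by 0.30 log units (SE 0.08, adjusted p = 0.02), while Mcm7 read 5.04, 4.96 and 4.80 and then 5.01, 5.04 and 4.92. The Mcm7 groups overlapped, with a difference of 0.06 log units (SE 0.08, adjusted p = 0.732).

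Uhrf1, which brings the maintenance methyltransferase to newly copied DNA, read 4.21, 4.30 and 4.29 in the 300 culture and 2.99, 3.36 and 3.06 in the 600 challenge. Every challenged array lay well below the culture, and Uhrf1 fell by 1.13 log units (SE 0.18, adjusted p = 0.000558). E2f1, an activating E2F, read 2.94, 3.03 and 2.54 and then 2.25, 2.16 and 1.87. The third culture array was the lowest of its group and still above all challenged arrays; E2f1 fell by 0.74 log units (SE 0.13, adjusted p = 0.000984). Cyclin E2 (Ccne2), a partner of CDK2 at S phase entry, fell by 0.33 log units (SE 0.06, adjusted p = 0.00167). Cyclin E1 (Ccne1) did not pass, at -0.08 log units (SE 0.10, adjusted p = 0.694).

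Of the helicase activation genes, Cdc45 fell by 0.65 log units (SE 0.16, adjusted p = 0.0132) and Mcm10, which is needed to start unwinding, by 0.52 log units (SE 0.15, adjusted p = 0.0325). Of the 4 GINS genes, none passed, with differences from -0.58 (Gins1) to 0.08 (Gins3). Pola2, the B subunit of polymerase alpha, was the 1 gene that rose. It read 3.64, 3.75 and 3.70 in the 300 culture and 4.17, 4.12 and 3.99 in the 600 challenge. All 3 challenged arrays lay above the culture, and Pola2 rose by 0.40 log units (SE 0.09, adjusted p = 0.00554). Its catalytic partner Pola1 had a difference of 0.06 log units (SE 0.12, adjusted p = 0.824).

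The 600 step count rests partly on single arrays. Without the first 300 culture array, or without the second 600 challenge array, 10 rather than 16 genes passed, and Orc1, Cdt1, Mcm2, Mcm6, Mcm10 and Cdc45 were no longer called in either case; the highest adjusted p of each over all single arrays left out was 0.13, 0.166, 0.0708, 0.0886, 0.143 and 0.0613. Leaving out the third 300 culture array or the third challenge array also cost some of these calls, for Cdt1, Mcm6 and Orc1 and for Orc1, Cdt1, Mcm6 and Mcm10, and the second culture array those of Orc1 and Mcm10 and the first challenge array that of Cdt1.

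The second comparison asked the same of cells already living at 600 mosmol/kg and moved to 900. Again 13 of 35 genes were lower (37.1%) and 1 was higher, against 11.0% and 6.43% of all features. Their median difference was -0.31 log units, against -0.01 over all features. In 21 genes the 3 challenged arrays lay below the 3 culture arrays, against 18.5% of all features. By role, 4 of 8 licensing genes, 3 of 4 nucleotide genes, 2 of 5 polymerase genes, 2 of 5 clamp and loader genes, Uhrf1 and Ccne2 fell, and none of the 6 helicase activation genes did, of which 2 had an unadjusted p under 0.05 (Gins1 and Gins3, in opposite directions).

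**Figure D2:**
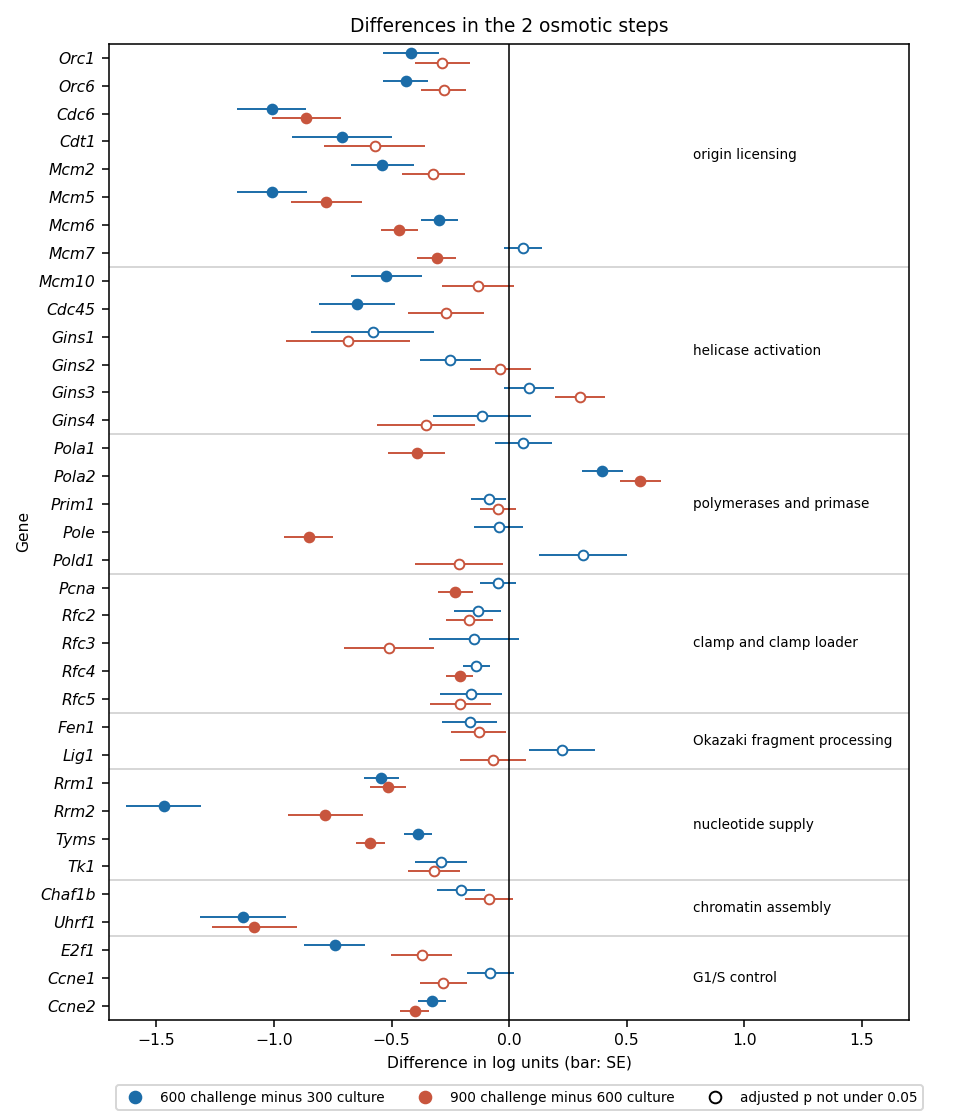
Difference of each gene (rows, by role) in the 600 step (blue) and the 900 step (red), in log units with standard errors; filled points have an adjusted p under 0.05. Most points lie left of 0, Pola2 lies right of 0 in both steps, and Pole is far left in the 900 step alone.

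Tyms had the smallest adjusted p of the set here. It read 5.62, 5.65 and 5.56 in the 600 culture and 4.96, 4.95 and 5.15 in the 900 challenge, with no overlap. Tyms fell by 0.59 log units (SE 0.06, adjusted p = 7.18e-06). Rrm1 read 6.23, 6.17 and 6.15 and then 5.71, 5.47 and 5.83, and fell by 0.51 log units (SE 0.08, adjusted p = 0.000221). The dimmer second feature of Rrm1 again did not pass, at -0.47 log units (limma, adjusted p = 0.154). Rrm2 went from 5.83, 5.93 and 5.90 to 4.80, 4.96 and 5.56. The challenged arrays of Rrm2 were widely spread and all lay below the culture, a fall of 0.78 log units (SE 0.16, adjusted p = 0.00284). The second Rrm2 feature fell by 0.83 log units.

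Uhrf1 read 4.15, 3.97 and 4.16 in the 600 culture and 2.69, 3.02 and 3.33 in the 900 challenge, and Cdc6 read 4.59, 4.62 and 4.34 and then 3.73, 3.47 and 3.76. Both were lower on every challenged array. Uhrf1 fell by 1.08 log units (SE 0.18, adjusted p = 0.000664) and Cdc6 by 0.86 log units (SE 0.15, adjusted p = 0.000736). Mcm5 read 5.00, 4.79 and 4.86 and then 3.77, 4.04 and 4.51, where the third challenged array was closest to the culture. Mcm5 fell by 0.78 log units (SE 0.15, adjusted p = 0.00193). Mcm6 read 5.17, 5.11 and 5.09 and 4.54, 4.65 and 4.78, and Mcm7 read 5.21, 5.15 and 5.25 and 4.96, 4.72 and 5.01. Neither gene's groups overlapped, with falls of 0.47 log units (SE 0.08, adjusted p = 0.000708) and 0.31 log units (SE 0.08, adjusted p = 0.0174). E2f1 read 3.14, 2.99 and 3.13 and then 2.68, 2.86 and 2.61, lower on every challenged array, but with a difference of -0.37 log units (SE 0.13, adjusted p = 0.0616) it missed the threshold. Cdt1 read 3.41, 2.75 and 2.91 and then 2.19, 2.19 and 2.96. The third challenged array lay inside the range of the culture, and the difference of -0.57 log units (SE 0.21, adjusted p = 0.0871) did not pass.

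Pole, the catalytic subunit of polymerase epsilon, which extends the leading strand, read 3.54, 3.41 and 3.52 in the 600 culture and 2.56, 2.71 and 2.65 in the 900 challenge. The groups were separated by a wide gap. Pole fell by 0.85 log units (SE 0.10, adjusted p = 4.09e-05). In the 600 step the same gene read 3.13, 3.18 and 3.09 and then 3.31, 2.98 and 2.96, groups that overlapped and differed by -0.04 log units (SE 0.10, adjusted p = 0.86). Tested directly, the difference between the steps was -0.81 log units (SE 0.15, adjusted p = 0.00365), and Pole was the 1 of 35 genes to pass that test, which 7.58% of all features did. A further 4 genes had an unadjusted p under 0.05 in it: Mcm7 (-0.37, adjusted p = 0.0753), Rrm2 (0.69, adjusted p = 0.0829), Pola1 (-0.45, adjusted p = 0.137) and Tyms (-0.20, adjusted p = 0.184).

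The clamp gene Pcna read 6.33, 6.27 and 6.12 in the 600 culture and 6.06, 5.91 and 6.06 in the 900 challenge. The groups were close but did not overlap, and Pcna fell by 0.23 log units (SE 0.07, adjusted p = 0.0488). The loader subunit Rfc4 fell by 0.21 log units (SE 0.06, adjusted p = 0.0177) and Pola1 by 0.39 log units (SE 0.12, adjusted p = 0.0364). Pola2 again rose: it read 3.68, 3.76 and 4.03 and then 4.35, 4.29 and 4.51, higher on every challenged array, by 0.56 log units (SE 0.09, adjusted p = 0.000319). With arrays centred on their medians or quantile-normalised, Pola1, Pcna and Rfc4 were no longer called, and Gins3 passed as a second higher gene (adjusted p = 0.042 and 0.0297).

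Fitting the 600 culture and the 900 challenge alone gave 9 genes rather than 14. Leaving out the second 900 challenge array left 10, and Mcm7, Pola1, Pcna and Rfc4 were then not called; the difference of Pola1 became -0.26. Those 4 calls also depended on other single arrays, with adjusted p up to 0.0869, 0.169, 0.187 and 0.0777: the third 600 culture array for Mcm7 and Pola1, the first and second culture arrays for Pola1 and Pcna, the second also for Rfc4, the first challenge array for Pola1, Pcna and Rfc4, and the third for Pcna. Conversely, genes that had missed passed without 1 array: Gins1 (adjusted p = 0.00924) and Tk1 (0.00825) without replicate 1 of the 600 culture, Cdt1 (0.0095) without replicate 3 of the 900 challenge, and Orc6 without replicate 2 of the culture or replicate 3 of the challenge (lowest 0.029).

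The 600 and 900 steps share no arrays. Of the 15 genes that fell in the 600 step and the 13 that fell in the 900 step, 8 were in both lists (53.3% and 61.5%): Cdc6, Mcm5, Mcm6, Rrm1, Rrm2, Tyms, Uhrf1 and Ccne2. Differences of both steps were below 0 in 29 genes. The share of all features lower in both steps, by call or by sign, was not counted. Across the 35 genes, which were all read on the same arrays, the 2 sets of differences had a Pearson r of 0.70, and across all features 0.43. Of the 13 genes with an E2F match, 6 fell in the 600 step, 7 in the 900 step and 9 in at least 1; of the 16 others with a promoter in the table, 4, 3 and 6 did.

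**Figure D3:**
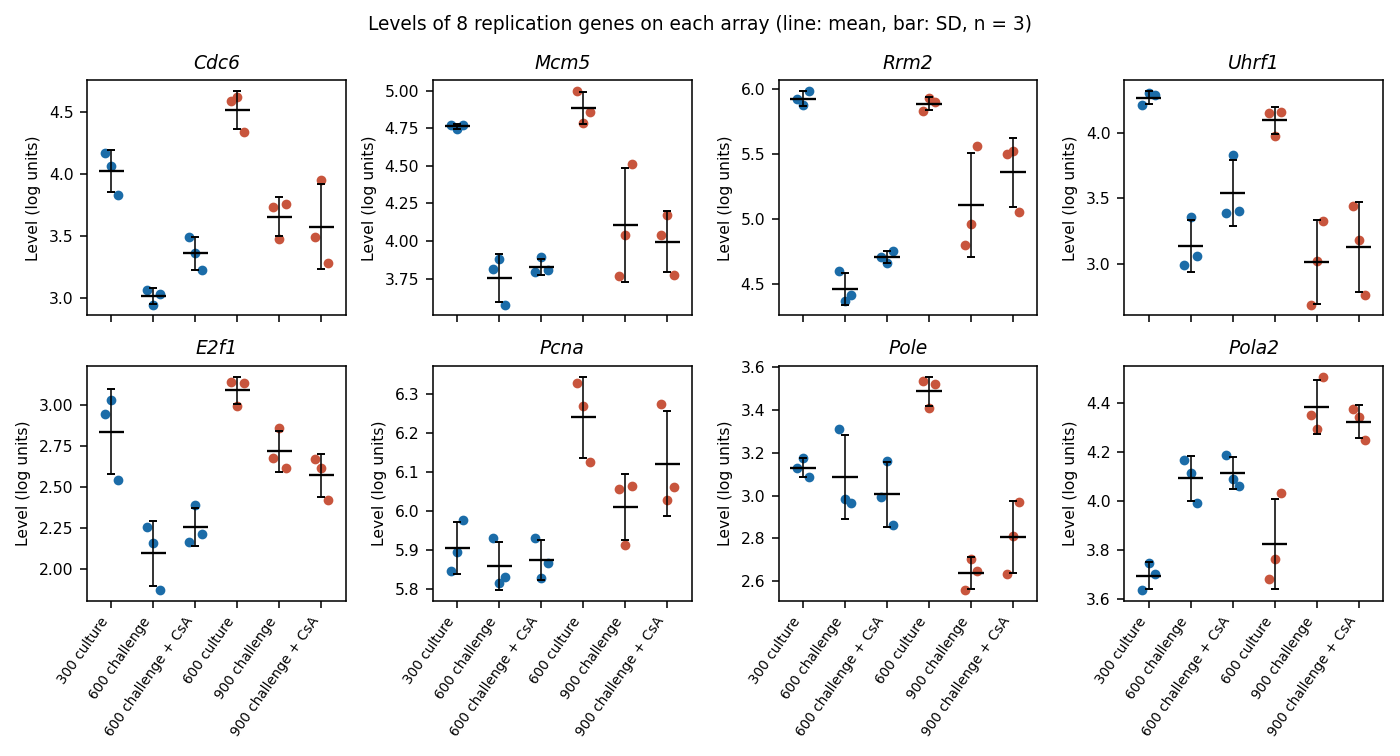
Levels of 8 genes in log units on each array (points), by group, with the group mean (line) and SD (bar, n = 3); CsA is cyclosporin A and blue marks the 300 culture and its challenges and red the 600 culture and its challenges; vertical axes differ and do not start at 0. Cdc6, Mcm5, Rrm2 and Uhrf1 are high in both cultures, Pcna is highest in the 600 culture, Pole is lowest in the 900 challenge, and Pola2 is higher in the challenges.

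The 14 genes called in neither step follow, with the arrays of the 300 culture first, then the 600 challenge, the 600 challenge with cyclosporin A, the 600 culture, the 900 challenge and the 900 challenge with cyclosporin A. They were the 4 GINS genes, Prim1, Pold1, Rfc2, Rfc3, Rfc5, Fen1, Lig1, Tk1, Chaf1b and Ccne1. Gins1 read 2.78, 3.17 and 3.39, then 2.83, 2.09 and 2.68, then 2.72, 2.29 and 2.72, then 2.35, 3.21 and 3.41, then 2.35, 2.32 and 2.24, then 2.33, 2.89 and 2.43. Gins2 read 3.79, 3.70 and 3.52, then 3.28, 3.52 and 3.46, then 3.29, 3.38 and 3.82, then 3.67, 3.44 and 3.66, then 3.61, 3.37 and 3.68, then 3.39, 3.50 and 3.42. Among these helicase subunits Gins1 was the most scattered, with a 95% interval of -1.14 to -0.02 for the 600 step and -1.25 to -0.12 for the 900 step. Both intervals lie below 0 before adjustment, and neither difference passed over all features. Gins3 read 4.31, 4.33 and 3.96, then 4.19, 4.38 and 4.29, then 4.37, 4.31 and 4.10, then 4.42, 4.56 and 4.39, then 4.71, 4.82 and 4.75, then 4.59, 4.78 and 4.50. Gins4 read 3.79, 3.67 and 3.43, then 3.46, 3.50 and 3.59, then 3.15, 3.50 and 2.57, then 4.05, 3.44 and 3.76, then 3.13, 3.45 and 3.62, then 3.61, 3.27 and 3.33. Gins3 lay above the 600 culture on every 900 challenge array (0.30, adjusted p = 0.0658), and Gins4 held 1 low array in the 600 challenge with cyclosporin A.

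Prim1, which makes the RNA primers, read 5.68, 5.87 and 5.75, then 5.78, 5.62 and 5.64, then 5.71, 5.80 and 5.58, then 5.94, 5.86 and 5.76, then 5.85, 5.75 and 5.82, then 6.01, 5.90 and 5.83. Its groups overlapped in both steps, with 95% intervals of -0.25 to 0.07 and -0.21 to 0.11 for the 600 and 900 steps. Pold1, the catalytic subunit of polymerase delta, read 2.52, 2.18 and 2.40, then 3.03, 2.63 and 2.39, then 1.94, 2.73 and 2.46, then 2.90, 3.05 and 3.10, then 2.85, 2.87 and 2.69, then 2.71, 2.64 and 3.03. Its lowest array was the first of the 600 challenge with cyclosporin A. The loader subunit Rfc2 read 4.92, 4.61 and 4.62, then 4.63, 4.41 and 4.70, then 4.72, 4.63 and 4.78, then 4.93, 4.70 and 4.90, then 4.67, 4.62 and 4.73, then 4.73, 4.78 and 4.54. Rfc3 read 3.83, 3.37 and 3.42, then 3.64, 3.14 and 3.39, then 3.30, 3.09 and 3.24, then 3.45, 3.59 and 3.78, then 3.20, 2.92 and 3.17, then 3.41, 3.18 and 2.58. Rfc5 read 4.58, 4.55 and 4.56, then 4.49, 4.45 and 4.27, then 4.16, 4.13 and 4.08, then 4.44, 4.82 and 4.57, then 4.44, 4.14 and 4.63, then 4.10, 4.54 and 4.44. Rfc3 lay below the 600 culture on all 900 challenge arrays (-0.51, adjusted p = 0.0876), and Rfc5 below the 300 culture on all 600 challenge arrays (-0.16, adjusted p = 0.491). With cyclosporin A at 600, Rfc5 passed against the 300 culture, at -0.44 log units (SE 0.13, adjusted p = 0.037). That call was lost in each of the 6 fits without 1 array of these groups (adjusted p = 0.0753 to 0.104) and after quantile normalization (0.0534).

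The flap endonuclease Fen1, which trims Okazaki fragments, read 4.19, 4.19 and 3.88, then 4.14, 3.82 and 3.79, then 3.90, 3.93 and 3.81, then 4.02, 4.05 and 4.18, then 3.89, 3.87 and 4.10, then 4.06, 4.13 and 3.77. Lig1, the ligase that seals them, read 4.47, 4.34 and 4.14, then 4.77, 4.65 and 4.21, then 4.43, 4.46 and 4.74, then 4.28, 4.17 and 4.25, then 4.17, 4.22 and 4.11, then 4.16, 4.47 and 4.55. The groups of both genes overlapped in both steps. Tk1 read 3.64, 3.44 and 3.35, then 3.21, 3.10 and 3.25, then 3.14, 3.32 and 3.32, then 3.43, 3.66 and 3.96, then 3.42, 3.29 and 3.38, then 3.23, 3.29 and 3.27. The histone chaperone subunit Chaf1b read 3.50, 3.38 and 3.42, then 3.06, 3.37 and 3.26, then 3.31, 3.46 and 3.35, then 3.21, 3.09 and 3.37, then 3.12, 3.17 and 3.12, then 2.83, 3.24 and 3.00. Ccne1 read 4.29, 4.37 and 4.38, then 4.39, 4.32 and 4.09, then 4.60, 4.27 and 4.24, then 4.44, 4.53 and 4.55, then 4.10, 4.29 and 4.29, then 4.42, 4.21 and 4.30. Tk1 was below its starting culture on every array of both challenges (-0.29, adjusted p = 0.103, and -0.32, adjusted p = 0.0627), Chaf1b in the 600 challenge and Ccne1 in the 900 challenge (-0.28, adjusted p = 0.0745). With cyclosporin A at 900, Tk1 passed against the 600 culture, at -0.42 log units (SE 0.11, adjusted p = 0.015), and was not called without replicate 3 of that culture (adjusted p = 0.0654).

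The cultures themselves were compared next. In the 600 culture 6 of 35 genes were higher than in the 300 culture (17.1%) and 1 was lower, against 8.33% and 8.84% of all features, and the median difference was 0.12 log units. Pcna read 5.84, 5.89 and 5.98 in the 300 culture and 6.33, 6.27 and 6.12 in the 600 culture, all above, and was higher by 0.33 log units (SE 0.07, adjusted p = 0.00532). Cdc6 was higher by 0.49 log units (SE 0.15, adjusted p = 0.0315) and Mcm6, at 4.86, 4.79 and 4.81 against 5.17, 5.11 and 5.09, by 0.31 log units (SE 0.08, adjusted p = 0.014). These and the 3 further genes, Mcm7 (0.27, adjusted p = 0.0364), Pole (0.36, adjusted p = 0.0276) and Pold1 (0.65, adjusted p = 0.0267), had no overlap between the cultures. Orc6 was the 1 lower gene, at 4.17, 4.25 and 4.42 in the 300 culture and 4.02, 3.78 and 4.02 in the 600 culture (-0.34, adjusted p = 0.0244). In 15 genes all 600 culture arrays lay above the 300 culture, which 16.1% of all features did, and in 3 below (16.7%). This count is fragile: leaving out replicate 1, 2 or 3 of the 300 culture left 6, 1 and 2 calls, and leaving out replicate 1, 2 or 3 of the 600 culture left 4, 3 and 4. Only Pcna was called in all 6 of these fits.

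The next comparison set cells moved to 600 mosmol/kg for 24 h against cells cultured there. In the 600 challenge 17 of 35 genes were lower than in the 600 culture (48.6%) and Pola2 was higher, against 8.74% and 7.69% of all features, with a median difference of -0.34 log units. Cdc6 differed most, by -1.50 log units (SE 0.15, adjusted p = 3.41e-06), followed by Rrm2 at -1.43 log units (SE 0.16, adjusted p = 1.21e-05) and Mcm5 at -1.13 log units (SE 0.15, adjusted p = 7.15e-05). E2f1 was lower by 0.99 log units (SE 0.13, adjusted p = 5.24e-05), Mcm10 by 0.92 log units (SE 0.15, adjusted p = 0.000513) and Mcm2 by 0.91 log units (SE 0.13, adjusted p = 0.000193). Pcna and Pole, which did not pass in the 600 step, were lower here (-0.38, adjusted p = 0.00216, and -0.40, adjusted p = 0.0151). Orc6 did not pass (-0.10, adjusted p = 0.603). The groups of Pola2 overlapped and its call (0.27, adjusted p = 0.0482) was lost without the first or second array of either group. Single arrays also decided Pole, Rfc4 and Cdt1, with adjusted p up to 0.0712, 0.0668 and 0.0834: replicates 1 and 3 of the 600 culture and 2 and 3 of the challenge for Pole, replicate 2 of the culture and 1 and 3 of the challenge for Rfc4, and replicate 1 of the culture for Cdt1. This comparison shares its challenge arrays with the 600 step and its culture arrays with the 900 step.

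Cyclosporin A was then compared with the challenge without the drug. At 600 mosmol/kg none of the 35 genes passed in limma, where 0.409% of all features did; 3 had an unadjusted p under 0.05, all higher with the drug. They were Orc1, at 2.29, 1.82 and 2.11 without and 2.29, 2.56 and 2.29 with the drug (0.30, adjusted p = 0.457), Cdc6, at 3.07, 2.94 and 3.03 and 3.49, 3.36 and 3.23 (0.34, adjusted p = 0.529), and Uhrf1, at 2.99, 3.36 and 3.06 and 3.38, 3.83 and 3.40 (0.40, adjusted p = 0.566). Of these, Cdc6 and Uhrf1 did not overlap between the groups. In 6 genes all arrays with the drug were higher and in 1, Rfc5, all were lower, against 6.90% and 6.29% of all features. The 95% intervals of the 35 differences reached from -0.89 (Gins4) to 0.79 (Uhrf1), with a median half-width of 0.25 log units. The lower bounds of Orc1, Cdc6 and Uhrf1 lay above 0 before adjustment.

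At 900 mosmol/kg none passed either, where 0.505% of all features did, and 1 had an unadjusted p under 0.05. That gene was Tyms, at 4.96, 4.95 and 5.15 without and 5.32, 5.30 and 5.22 with the drug, separate groups that differed by 0.26 log units (SE 0.06, adjusted p = 0.0843). It was also the 1 gene with all drug arrays above the others (8.30% of all features), and Orc1 the 1 with all below (7.47%). Tyms passed when the prior variance followed the intensity trend (adjusted p = 0.0245) or without the third 900 challenge array (adjusted p = 0.0381). The intervals reached from -0.58 (Cdt1) to 0.81 (Gins1). The drug's effects at 600 and 900 mosmol/kg passed as different in none of the 35 genes by limma, where 0.0459% of all features did (0.0388% higher and 0.00706% lower at 900 than at 600); Orc1 alone had an unadjusted p under 0.05 (-0.52, adjusted p = 0.466).

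**Figure D4:**
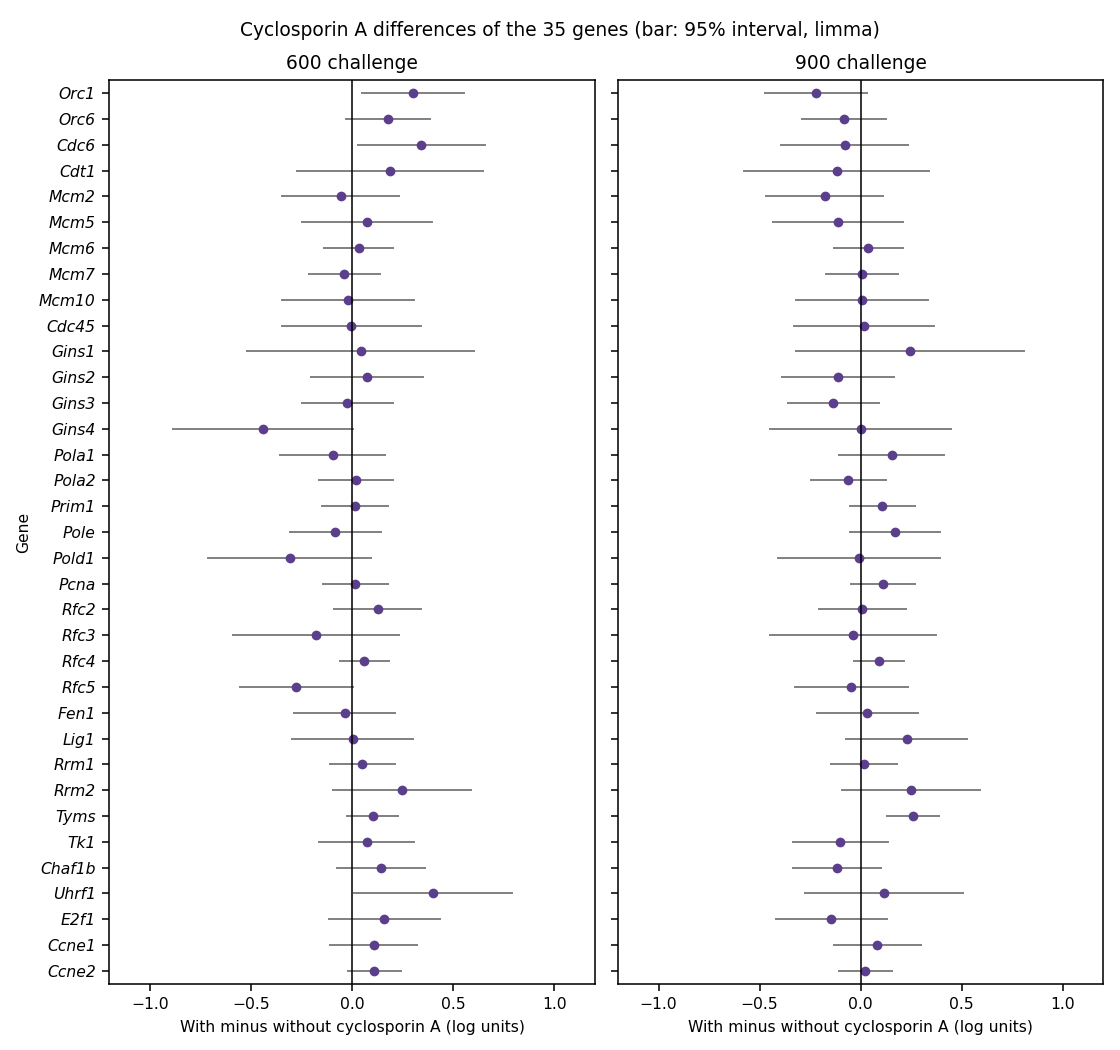
Difference with minus without cyclosporin A for each gene at the 600 challenge (left) and the 900 challenge (right), in log units, with 95% intervals from limma. Nearly all intervals span 0; Tyms at 900 is 0.26 and none of the 35 passed after adjustment.

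With the drug present, the challenges were also set against their starting cultures, using the same culture arrays as before. The 600 challenge with cyclosporin A was lower in 13 genes and higher in Pola2 (7.85% and 6.21% of all features), and the 900 challenge with cyclosporin A was lower in 16 and higher in Pola2 (10.5% and 7.27%). Rrm2 read 4.71, 4.66 and 4.75 with the drug at 600 and 5.50, 5.52 and 5.05 at 900, below its cultures on every array. Its difference was -1.22 (adjusted p = 8.37e-05) with and -1.47 (adjusted p = 1.5e-05) without the drug at 600, and -0.53 (adjusted p = 0.0311) and -0.78 (adjusted p = 0.00284) at 900. The call with the drug at 900 was lost, up to an adjusted p of 0.149, without any 1 of the 600 culture arrays or without the third array of the drug group. Mcm5 read 3.79, 3.89 and 3.80 with the drug at 600 and 4.04, 4.17 and 3.77 at 900. The Mcm5 differences were -0.94 with and -1.01 without the drug at 600, and -0.89 and -0.78 at 900 (adjusted p with the drug = 0.000531 and 0.000655). Pole read 2.99, 3.16 and 2.86 with the drug at 600 and 2.63, 2.81 and 2.97 at 900. Its differences with the drug were -0.12 (adjusted p = 0.524) at 600 and -0.68 (adjusted p = 0.000287) at 900. Pola2, at 4.19, 4.09 and 4.06 and 4.38, 4.34 and 4.25, was above its cultures on every array, by 0.42 (adjusted p = 0.00395) and 0.50 (adjusted p = 0.000796).

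The remaining drug arrays of the genes described above were these. Cdc6 at 900 with the drug read 3.49, 3.95 and 3.28 and Uhrf1 3.44, 3.18 and 2.76. Both were widely spread and still below the 600 culture on every array. E2f1 read 2.17, 2.39 and 2.21 at 600 and 2.67, 2.62 and 2.42 at 900, and Cdt1 2.33, 2.58 and 2.26 and 2.40, 2.14 and 2.45. E2f1 and Cdt1 were below their cultures on every array. Rrm1 read 5.58, 5.70 and 5.63 and 5.70, 5.79 and 5.58, Tyms at 600 5.20, 5.25 and 5.11, and Pcna 5.93, 5.83 and 5.87 and 6.28, 6.03 and 6.06. Mcm6 in the 600 challenge read 4.64, 4.43 and 4.48 without the drug and 4.44, 4.60 and 4.62 with it, and 4.82, 4.66 and 4.59 at 900 with it. Mcm7 read 4.99, 4.99 and 4.88 and 5.00, 4.80 and 4.91. Pcna overlapped its starting culture at both osmolalities with the drug, whereas Rrm1 and Mcm6 did not. Fitted without the other groups, the 900 challenge with the drug gave 11 calls rather than 17. At 600 with the drug, 9 calls rather than 14 were left without the first 300 culture array or the first array of the drug group.

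Other genes of the pathway were counted from lists that hold none of the 35. Of 24 measured genes of other replication machinery, 7 fell in the 600 step and 9 in the 900 step, none rose, and the medians were -0.08 and -0.16 log units. The licensing inhibitor Gmnn fell by 0.61 log units (SE 0.11, adjusted p = 0.00184) in the 600 step and had -0.21 (adjusted p = 0.254) in the 900 step. Pold2, a polymerase delta subunit, fell in both, by 0.46 and 0.65 (adjusted p = 0.00301 and 0.000141), and so did the primase subunit Prim2, by 0.24 and 0.26 (adjusted p = 0.0123 and 0.00484). Of 21 other nucleotide enzymes, 5 fell and 1 rose in the 600 step, and 3 fell and 2 rose in the 900 step. Dut, which removes dUTP, fell in both, by 0.42 and 0.54 (adjusted p = 0.0152 and 0.00216). The mitochondrial folate enzyme Mthfd2 fell in the 600 step (-0.59, adjusted p = 0.000544) and rose in the 900 step (0.33, adjusted p = 0.0258). The p53-induced small reductase subunit Rrm2b did not pass in either step (adjusted p = 0.981 and 0.99). It was higher in the 600 than in the 300 culture, by 0.39 log units (SE 0.05, adjusted p = 7.93e-05).

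Of 16 other E2F and S phase regulators, 8 fell and 1 rose in the 600 step, and 9 fell in the 900 step. Mybl2, an E2F target that works with the late cell cycle complex, fell by 1.62 and 1.10 (adjusted p = 6.66e-05 and 0.00146). Cyclin A2 (Ccna2) fell by 1.14 and 0.69 (adjusted p = 1.23e-05 and 0.000899). Cyclin D2 (Ccnd2), a G1 cyclin, fell by 1.16 and 0.60 (adjusted p = 6.14e-07 and 0.000256). Ccnd2 was higher with cyclosporin A at the 600 challenge, by 0.49 log units (SE 0.09, adjusted p = 0.033). That drug call was lost when only the groups compared were fitted, where no feature passed. Cyclin D1 (Ccnd1) fell in both steps (-0.56, adjusted p = 2.85e-05, and -0.33, adjusted p = 0.0022) but was higher in the 600 than in the 300 culture (0.68, adjusted p = 2.19e-06). Myc had -0.03 (adjusted p = 0.858) in the 600 step and -0.60 (adjusted p = 1.42e-05) in the 900 step. Of 10 other replication-coupled chromatin genes 2 fell in the 600 step and 6 in the 900 step. The PCNA-binding factor gene Pclaf fell by 1.43 and 1.17 (adjusted p = 1.11e-05 and 6.17e-05).

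Brakes on S phase entry changed in both directions. Of 11 measured, 3 rose and 2 fell in the 600 step, and 3 rose and 5 fell in the 900 step. The CDK inhibitor p27 (Cdkn1b) rose by 0.18 and 0.40 (adjusted p = 0.0175 and 2.79e-05), and the pocket protein p130 (Rbl2) by 0.21 and 0.35 (adjusted p = 0.0261 and 0.000701). Another inhibitor, p57 (Cdkn1c), rose by 0.25 and 0.25 (adjusted p = 0.0285 and 0.0234). The p53 target p21 (Cdkn1a) did not pass in the 600 step (0.02, adjusted p = 0.849) and fell in the 900 step (-0.23, adjusted p = 0.00857). Cdkn2c, an inhibitor of the cyclin D kinases, fell by 0.63 and 0.56 (adjusted p = 0.000139 and 0.000328), and Cdkn2a by 0.67 and 0.81 (adjusted p = 0.00338 and 0.000674).

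All 14 measured mitosis genes were lower in the 600 step, with a median of -0.89 log units, and 11 of 14 were lower in the 900 step, with a median of -0.45. In the 600 culture against the 300 culture 4 of 14 were lower and none higher, with a median of -0.24, while the 35 replication genes had a median of 0.12; the difference between the lists was not tested.

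**Figure D5:**
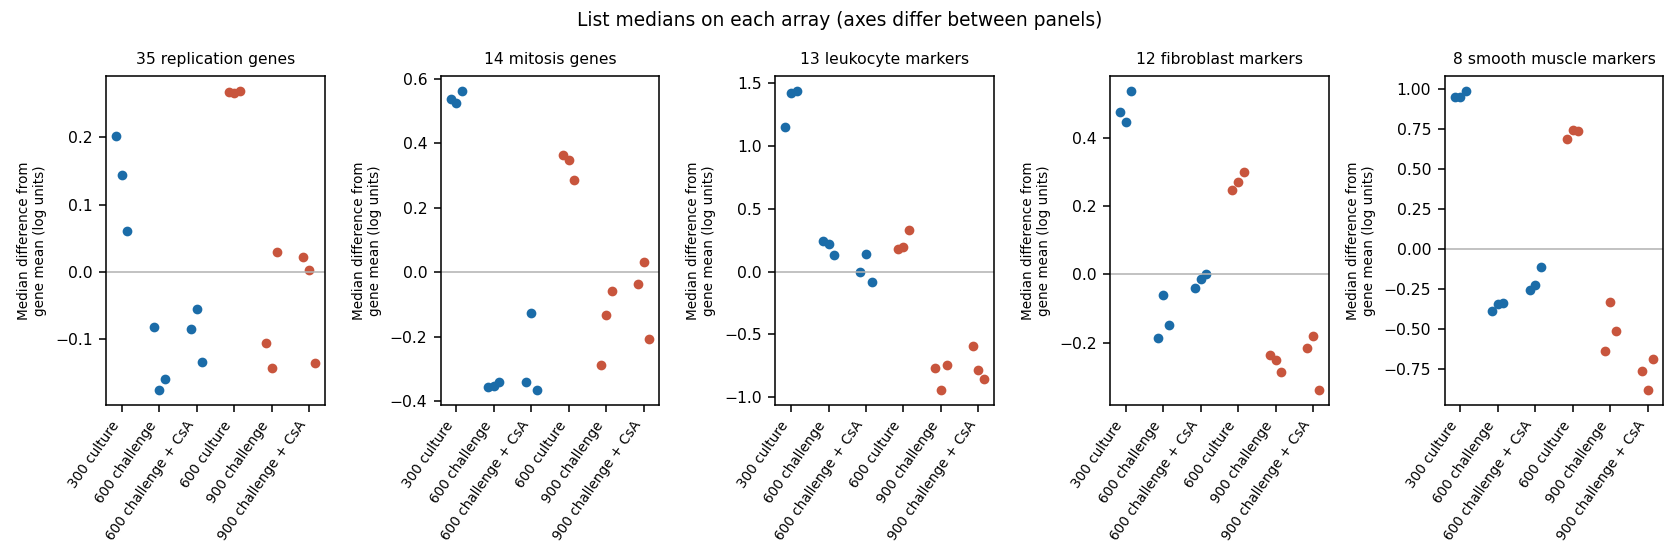
Median over each list of the difference from the gene's mean, in log units, on each array (points), for the 35 replication genes, mitosis genes, and leukocyte, fibroblast and smooth muscle markers; blue marks the 300 culture and its challenges, red the 600 culture and its challenges, CsA is cyclosporin A, and vertical axes differ between panels. The replication genes are highest in the 600 culture, near 0.27, while the leukocyte markers are highest in the 300 culture.

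Markers of some other cell types were lower in the same comparisons, and those of others were higher or near level. Over all features 8.07% were lower and 6.36% higher in the 600 step, and 11.0% and 6.43% in the 900 step. Leukocyte markers were lower for 10 of 13 in the 600 step and 11 of 13 in the 900 step. Their summed level was 73.9 to 75.0 log units in the 300 culture, 58.4 to 60.0 in the 600 challenge, 59.9 to 61.5 in the 600 culture and 46.5 to 47.2 in the 900 challenge. Fibroblast markers were lower for 7 and 9 of 12, with sums of 61.9 to 62.6, 54.6 to 55.5, 57.9 to 58.1 and 50.7 to 51.7 in the same order. Smooth muscle markers were lower for 8 of 8 in both steps, with sums of 50.8 to 50.9, 39.7 to 40.3, 48.7 to 49.4 and 37.6 to 39.6. Endothelial markers were lower for 7 and 5 of 11 and higher for 1 and 2, with sums of 58.0 to 58.4, 53.5 to 54.5, 59.9 to 61.4 and 58.2 to 59.5. No marker of these lists was at 0 in any group, but some were dim. By group mean, 0, 2, 0 and 4 leukocyte markers lay under the lower quartile, in the same order of groups. For fibroblast markers it was 2, 1, 2 and 3, for smooth muscle markers 0, 1, 0 and 1, and for endothelial markers 0 in each. The markers' part in the falls of the replication genes was not tested. Between the cultures, 12 of 13 leukocyte, 6 of 12 fibroblast and 3 of 8 smooth muscle markers were lower at 600 mosmol/kg and none was higher. Of 11 endothelial markers 5 were higher and 3 lower there, and of 8 epithelial markers 3 were higher and 3 lower. In that comparison 6 replication genes were higher and 1 was lower, against 8.33% and 8.84% of all features. Of these calls only that of Pcna held whichever array was left out. In each of the 600 and 900 steps, epithelial markers were lower for 3 of 8 and higher for 1, with sums of 57.6 to 57.8, 56.8 to 57.0, 57.1 to 57.6 and 55.9 to 56.6. Loop of Henle sums went up in both steps, at 13.4 to 14.7, 15.1 to 15.9, 18.7 to 19.5 and 22.3 to 22.5. Principal cell sums were 24.8 to 26.1, 27.0 to 27.3, 45.8 to 49.3 and 51.7 to 51.9. Proximal tubule sums stayed between 15.2 and 17.1 and intercalated cell sums between 19.0 and 23.1, with most markers of both lists dim.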

How the data were processed

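The 18 arrays were grouped by their labels. Per the labels' protocols, RNA was isolated by Qiagen RNeasy, copied with Affymetrix whole-transcript reagents and biotin-labelled. The authors' deposited values are log-scale levels of 28328 features; their log base, summary and normalization are not given in the sources used here, and no filter or pseudocount was applied. Each gene was read from the brightest of the features whose single symbol in the platform table is that gene, and all 35 matched the RefSeq gene table by Entrez identifier.

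A linear model of 6 group means on all 18 arrays was fitted with limma 3.58.1 in R 4.3.3 (12 residual degrees of freedom), with Benjamini-Hochberg adjustment over all features within each of 10 contrasts and a threshold of 0.05. On simulated data of 28328 features, 87% of 200 shifts of 1 log unit in the 600 step were recovered, with 8 false calls among the unshifted features. Smaller shifts, such as most called genes showed, were not simulated. The simulated noise was independent between features, and far fewer features were shifted than the 4087 called in the real 600 step. These rates need not hold for the real arrays. The series text names the comparisons of each challenge with its starting culture in BRB ArrayTools and no test; the test had been planned for log2 values and was run on the deposited scale. The genes and lists were chosen with earlier results of these data known. Values in every array are given for the 10 genes with the largest mean difference over both steps, for those called in opposite directions, and for those called in neither step. The arrays' number limits the precision. Alternatives were array centring, quantile normalization, leaving out dim features, another feature per gene, a replicate block, an intensity trend, array weights, only the groups compared, and leaving out each array.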

Additional observations from a re-analysis of the deposited data

Results flagged for a closer look

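Pole, the catalytic subunit of polymerase epsilon, was singled out because its change differed between the osmotic steps by a test of that difference: the 900 step minus the 600 step was -0.81 log units (limma, adjusted p = 0.00365). It was lower on 3 of 3 arrays of the 900 challenge than in the 600 culture, while the 600 challenge and 300 culture overlapped. Leaving out each array in turn kept the call, with differences from -0.87 to -0.70 and adjusted p from 0.00454 to 0.0118. Pole was also 0.36 log units higher in the 600 culture than in the 300 culture (adjusted p = 0.0276), a comparison that shares arrays with both steps.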

How the results depend on the processing

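No gene of the 35 reversed direction under any alternative while called. Array centring and quantile normalization moved the median of all features by less than 0.05 log units in every comparison. Fitting only the groups compared, which leaves fewer samples to estimate the spread, gave 9 genes in the 900 step and 11 in the 900 step with cyclosporin A; over all features it gave 2860 and 3059 in those steps, 2479 in the 600 step with the drug, 3071 for the 600 challenge against the 600 culture, 5 for the difference between drug effects, and 0 for the drug at 600 and 0 at 900 (main 116 and 143). With an intensity trend, 272 features passed for the drug at 600, 383 at 900 and 37 for the difference between drug effects (main 13), 1 gene (Tyms) for the drug at 900, and 3 (Mcm7, Rrm2 and Pole) for the difference between steps; without dim features, 20 passed for the difference between drug effects. The cause was not tested.

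Leaving out single arrays gave 10 to 15 genes in the 600 step (features 3127 to 3451), 10 to 15 in the 900 step (3770 to 4326), 9 to 12 and 12 to 16 in these steps with the drug (2991 to 3370 and 3968 to 4349), 1 to 6 between the cultures (3976 to 4128) and 16 to 18 for the 600 challenge against the 600 culture (3798 to 3966). For the drug it gave 0 to 0 genes at 600 (features 39 to 67) and 0 to 1 at 900 (43 to 76), 0 to 0 for the difference between drug effects (4 to 17), and 1 to 2 for the difference between steps (1505 to 2008). Arrays with the same replicate number showed little shared deviation (Pearson r across features -0.13 to 0.11 over 45 pairs). Arrays with different numbers gave -0.13 to 0.15 over 90 pairs. Such correlations cannot tell whether equal numbers share an animal or a preparation, and the labels do not say. The numbers were taken from the sample titles, and the source names of some samples give a different number. With the replicate block 16 genes passed in the 600 step, 16 in the 900 step (E2f1 and Gins3 added), 12 and 18 with the drug, 9 between the cultures (Mcm10 and Gins3 added), 17 for the 600 challenge against the 600 culture, and 0, 0, 1 and 0 for the drug at 600, at 900, and the differences between steps and drug effects. Shares of all features with this block are not given here, so its added calls cannot be set against them. Signal over background is not given, which limits what can be said of dim genes such as Orc1 and Cdt1.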

Other observations

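Some genes outside the 35 that regulate S phase, work at the fork or act on new chromatin were also compared. Most of those named here fell in at least 1 step. The repressive E2F gene E2f7 fell by 1.01 log units in the 600 step and 0.79 in the 900 step (limma, adjusted p = 0.000971 and 0.00531), lower on all 3 arrays of each challenge than on its culture arrays. The histone chaperone Asf1b fell by 1.04 and 0.78 (adjusted p = 0.0022 and 0.0128). Hells, a chromatin remodeller needed for DNA methylation, had -0.18 (adjusted p = 0.0895) in the 600 step and fell by 0.58 log units (SE 0.07, adjusted p = 2.51e-05) in the 900 step. The fork protection gene Timeless had -0.07 (adjusted p = 0.866) and then fell by 0.52 log units (SE 0.17, adjusted p = 0.0458). The polymerase epsilon subunit Pole3 had 0.01 (adjusted p = 0.964) in the 600 step and fell by 0.42 log units (SE 0.12, adjusted p = 0.0191) in the 900 step, and Pole4 had -0.08 (adjusted p = 0.513) and 0.05 (adjusted p = 0.717). Tested directly, the steps differed for Hells (-0.39, adjusted p = 0.0207), and the test was missed by E2f7 (0.23, adjusted p = 0.683), Asf1b (0.26, adjusted p = 0.682), Timeless (-0.45, adjusted p = 0.306), Pole3 (-0.44, adjusted p = 0.133) and Pole4 (0.13, adjusted p = 0.501).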
